A study of Mus musculus with 17 samples.

Results

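Heat shock proteins and their partner chaperones were examined as a family in splenic dendritic cells exposed to medium of live or dying tumor cells. The 39 members were given as a fixed list of gene identifiers, not by a threshold on measured values, and all 39 were found among the 31091 gene identifiers of the count table. They comprise 24 cytosolic chaperones and co-chaperones, 8 proteins of the endoplasmic reticulum (ER), 5 of the mitochondrion and the 2 heat shock factors Hsf1 and Hsf2. All 39 passed the filter on low counts in every comparison.

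The dendritic cells came from female C57BL/6JRj mice that carried B16 melanoma cells secreting FLT3L, which expands these cells, and spleens of at least a pair of mice were pooled. Their CD11c+ fraction was kept for 6 h in GM-CSF together with medium of TC-1 cells, a mouse lung epithelial tumor line. All TC-1 cells had received the inducer cumate. WT medium came from live wild-type cells, BimS medium held debris of TC-1-iBimS cells dying by apoptosis, and RIPK3 medium held debris of TC-1-iRIPK3 cells dying by necroptosis. The inducible lines were clonal, and the number of clones used is not stated, so that the clone and the form of death cannot be told apart. Type 1 conventional dendritic cells (cDC1s, XCR1+CD8α+SIRPα-) and type 2 cells (cDC2s, SIRPα+CD11b+XCR1-) were then sorted by these markers, with no selection for uptake of debris, and polyadenylated RNA was sequenced. There were 3 samples in each of the 6 groups except cDC2s with RIPK3 medium, which had 2. The labels do not say that replicates came from separate animals or cultures, so p-values measure only the spread between these samples.

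Chaperones bind unfolded or partly folded proteins, prevent their aggregation and assist folding with cycles of ATP hydrolysis. HSP70 proteins are loaded with clients by J-domain proteins (the Dnaj genes) and reset by exchange factors such as HSP110 proteins and BAG proteins, and can hand clients to HSP90 through co-chaperones. In the cytosol, misfolded protein releases heat shock factor 1, which binds heat shock elements and induces genes such as Hspa1a and Hspa1b, whereas Hspa8 encodes the constitutive HSP70. In the ER, the unfolded protein response induces Hspa5 (BiP) and Hsp90b1 (GRP94) through ER stress response elements. Mitochondria have their own HSP70 (Hspa9), HSP90 (Trap1) and the chaperonin made by Hspd1 (HSP60) and Hspe1 (HSP10). In dendritic cells, chaperones also take part in handling antigen, and Hsp90b1 folds Toll-like receptors.

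Between 16095159 and 21645289 reads per sample were counted on genes, with a median of 18986002. The sorts were checked with marker genes. The 10 cDC1 markers summed to between 1627 and 1982 CPM (counts scaled to a common library size, with TMM normalization to correct for composition) in cDC1s and to between 121 and 166 CPM in cDC2s, and the 9 cDC2 markers to between 2.95 and 5.35 CPM in cDC1s and between 289 and 376 CPM in cDC2s. The 14 tumor cell markers that were found summed to between 6.93 and 11.1 CPM in cDC1s, and 0 of the 12 tested was called in either comparison of cDC1s with WT medium. In cDC2s they rose from between 79.7 and 94.0 CPM with WT medium to between 154 and 199 CPM with debris, through the single called gene Thbs1, which encodes thrombospondin. Markers of B cells, of neutrophils and of T and NK cells each summed to at most 3.67 CPM in any sample. Macrophage markers summed to between 8.80 and 11.6 CPM in cDC1s with WT medium and to between 3.84 and 6.45 CPM with debris, with between 15.3 and 30.5 CPM in cDC2s, and plasmacytoid dendritic cell markers to between 54.3 and 66.0 CPM in cDC1s and between 173 and 217 CPM in cDC2s. The part of RNA from other cells in the chaperone results was not tested. In bulk samples, a larger share of cells with a transcript and more of it per cell cannot be told apart.

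The 300 bases around the start site, from 250 before it to 50 after it, were searched in RefSeq promoter sequences for elements that these regulators bind, on both strands. The table holds 31 of the members. Hsf1, Hsp90aa1, Hsp90ab1, Hspa13, Hspa8, Hspa9, Hyou1 and St13 were not searched. A heat shock element of 3 units, GAANNTTCNNGAA or TTCNNGAANNTTC, was found for 5 of the 31 (Hspd1, Hspe1, Dnajb6, Hsph1 and Chordc1), against 0.662% of the 27025 genes in the table. The 2-unit form, GAANNTTC or TTCNNGAA, which the longer motif contains, was found for 12 of the 31 and for 17% of all genes. The ER stress response element, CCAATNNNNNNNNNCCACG or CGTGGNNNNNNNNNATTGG, was found for 3 of the 31 (Hspa5, Hsp90b1 and Dnajc3) and for 0.137% of all genes. The table is built on GRCm38.p6, and each window of a member was found exactly once in GRCm39, from which the coordinates come. A match is a description of letters and not a site shown to be bound, and a window without a match says nothing about the factor.

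The stretches that follow lie upstream of the start site, run 5′ to 3′ along the gene, and have the matches in capitals. They were picked by gene: the inducible HSP70 pair, the HSP110 gene Hsph1, the small heat shock protein gene Hspb1, the J-domain gene Dnajb4, the mitochondrial chaperonin pair and ER genes. All printed 2-unit matches precede genes that rose with RIPK3 medium in cDC1s, so no link between element and response can be read from them. Upstream 2-unit matches also precede Fkbp4, which fell with BimS medium, and Dnaja1, which was not called against WT medium. Dnajb1, Dnaja2 and Hspa2 rose with RIPK3 medium in cDC1s and had no match.
Hspa1a, chr17:35191218-35191247, minus strand, 2-unit heat shock element: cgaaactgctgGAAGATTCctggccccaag
Hspa1b, chr17:35178300-35178329, minus strand, 2-unit heat shock element: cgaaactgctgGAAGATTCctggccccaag
Hsph1, chr5:149559816-149559845, minus strand, 2-unit heat shock element: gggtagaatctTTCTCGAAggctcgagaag
Hspb1, chr5:135916645-135916694, plus strand, a pair of 2-unit elements: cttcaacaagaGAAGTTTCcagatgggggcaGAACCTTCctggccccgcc
Dnajb4, chr3:151899483-151899507, minus strand, 2-unit heat shock element: ttcgttcgctgTTCTAGAAagtaca
Hspd1, chr1:55127206-55127247, minus strand, overlapping 3-unit elements: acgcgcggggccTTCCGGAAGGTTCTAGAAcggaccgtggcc
Hspe1, chr1:55127206-55127247, plus strand, the same bases read from the other strand: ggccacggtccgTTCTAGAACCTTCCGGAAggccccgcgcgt
Hspa5, chr2:34662025-34662067, plus strand, ER stress response element: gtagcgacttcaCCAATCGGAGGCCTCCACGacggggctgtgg
Dnajc3, chr14:119175227-119175269, plus strand, ER stress response element: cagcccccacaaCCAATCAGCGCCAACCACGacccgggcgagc
The stretches of Hspa1a and Hspa1b are the same letter for letter, and 247 of the 250 bases upstream of both genes are identical (98.8%). The stretches of Hspd1 and Hspe1 are the same bases of chromosome 1, read from opposite strands. The 3-unit matches of Hsph1 and Chordc1 lie at or just past the start site and are not printed, nor are the 3-unit match of Dnajb6 and the pair of ER stress response elements of Hsp90b1.

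Hspa1a (ENSMUSG00000091971, chr17:35188166-35191132, minus strand, GRCm39) and Hspa1b (ENSMUSG00000090877, chr17:35175412-35178214, minus strand) are neighbors. Of the 50-base windows of the Hspa1a transcript, 58.8% occur unchanged in that of Hspa1b, and 62.3% the other way round. Reads of these stretches cannot be assigned to either gene by sequence, so the summed reads of both are given beside each gene.

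With WT medium, the family had the same leading members in both cell types. The 39 members took 1.30% of the reads on genes in cDC1s and 1.25% in cDC2s with WT medium, 1.23% in both with BimS medium, and 1.33% and 1.30% with RIPK3 medium, as means over samples. Per kilobase of the canonical transcript, the highest mean level was that of Hsp90ab1, the constitutive cytosolic HSP90, at 1492 CPM per kb in cDC1s and 1217 in cDC2s. Hspa8 followed at 876 and 592 CPM per kb, then Hsp90b1 at 373 and 350. The lowest levels in cDC1s were those of Dnajb4 (0.771 CPM per kb), Hspa2 (1.22) and Hspb1 (1.99), and in cDC2s those of Hspa1b (1.79) and Hspa1a (2.43). The inducible HSP70 pair, as counted, thus stood near the bottom of the family in cells with WT medium. Reads of the stretches that the pair shares may be missing from the counts, which would lower its level per kb, and this was not tested.

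**Figure D1:**
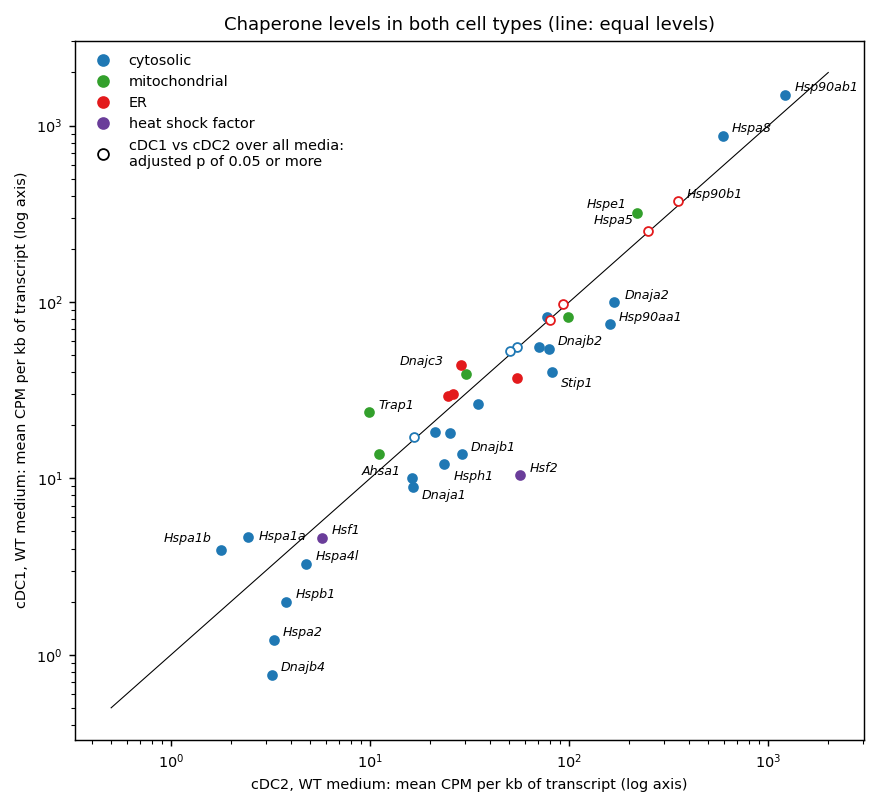
Mean level of each of the 39 members per kilobase of its canonical transcript in cDC2s (x axis) and cDC1s (y axis) with WT medium, both on log axes, colored by compartment, with members of a fold difference of 0.5 or more on the log2 scale and a few others labeled. Hsf2, Dnajb4, Hspa2 and Hsp90aa1 lie below the line of equal levels, Hspa1a, Hspa1b and Trap1 above it, and open points mark the 7 members with no call between the cell types.

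In cDC1s, 11 of the 39 members rose with BimS medium and 21 with RIPK3 medium. With RIPK3 medium 23 of the 39 members were called (adjusted p under 0.05), 21 higher and 2 lower, where 16.5% of the 19513 genes tested were called, 8.34% higher and 8.19% lower. With BimS medium 16 were called, 11 higher and 5 lower, against 13.2% of all genes, 7.31% higher and 5.89% lower. The median log2 fold change of the members was 0.17 with RIPK3 and 0.11 with BimS medium, beside -0.01 and 0.00 over all genes. The 2 comparisons share the WT samples. Of the members, 41% and 59% were thus called with BimS and RIPK3 medium. The genes behind the shares of all genes, here and below, are not matched to the members in level, on which the power to call depends. In these comparisons 13 members were called with both kinds of debris, each in the same direction, 3 with BimS medium alone and 10 with RIPK3 medium alone, which does not show that these differ between the media. By limma on log2 counts without normalization, the kind of fit the study used but with the adjusted threshold applied here, 11 and 5 members were called with RIPK3 and BimS medium, where 14.1% and 7.74% of all genes were. Scaled by library totals alone, 15 members were higher and 3 lower with RIPK3 medium (6.06% and 14.0% of all genes) and 6 higher and 6 lower with BimS medium (5.35% and 10.0%).

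**Figure D2:**
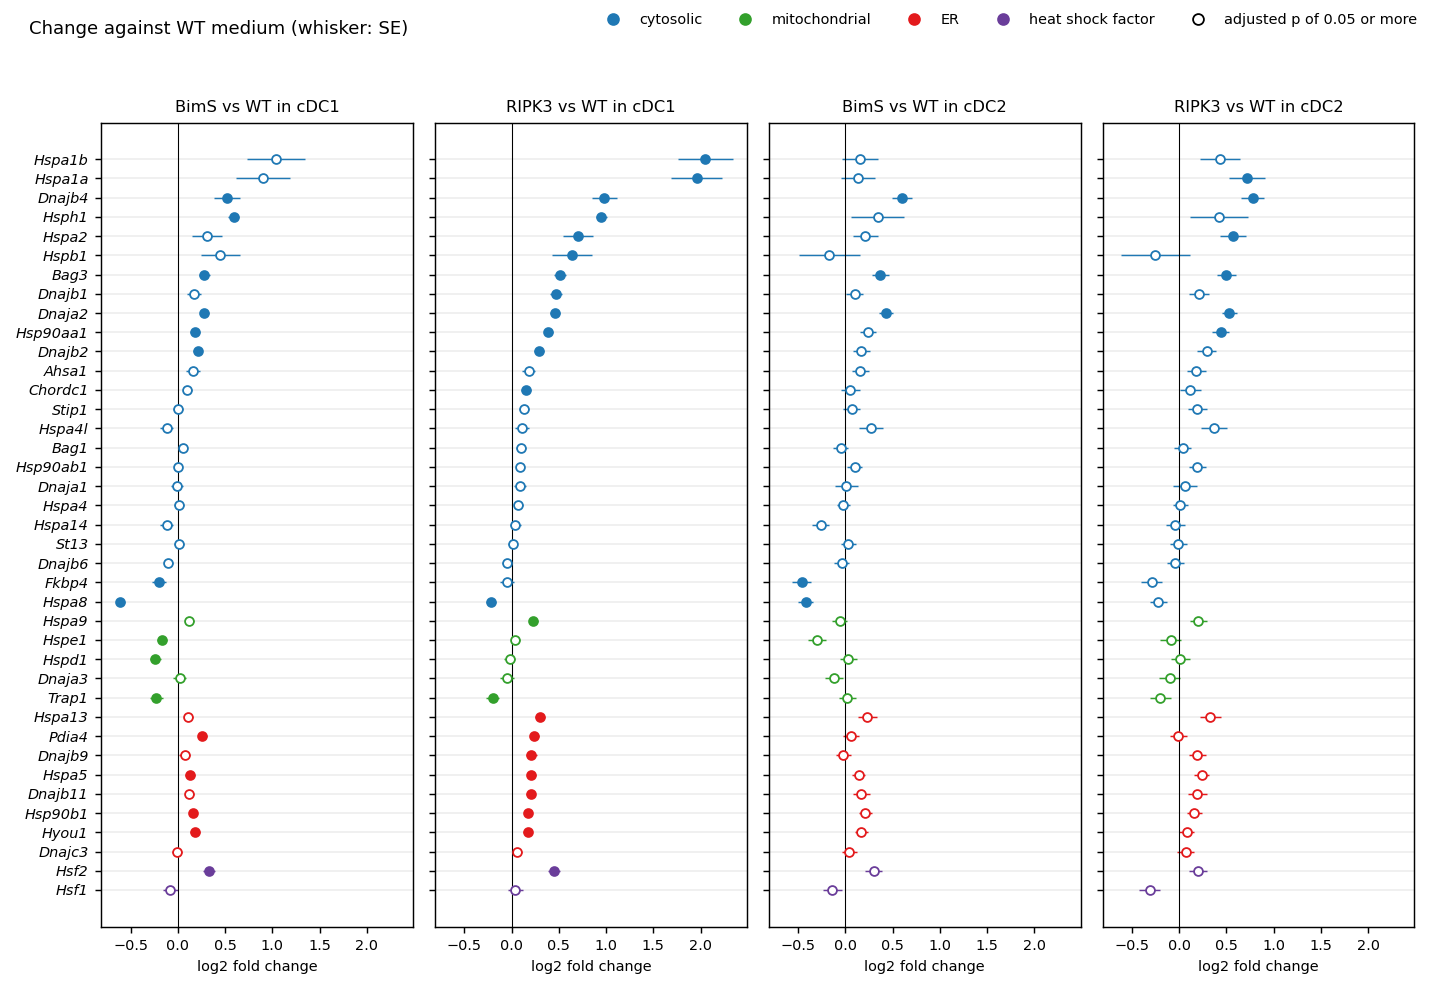
Log2 fold change against WT medium of the 39 members (rows, ordered within compartments by the change with RIPK3 medium in cDC1s) in the 4 comparisons, with whiskers for the standard error. Filled points passed an adjusted p of 0.05 in the fit that does not block on the replicate number. Most filled points are in the cDC1 panels, where Hspa1a and Hspa1b extend to 1.96 and 2.05 and Hspa8 lies at -0.61 with BimS medium.

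The inducible cytosolic HSP70s had the largest rises. Hspa1b was at 13.7, 8.14 and 11.4 CPM in the 3 cDC1 samples with WT medium, at 29.8, 18.1 and 20.7 with BimS medium and at 58.4, 38.6 and 40.7 with RIPK3 medium. Hspa1a was at 16.4, 9.56 and 15.6 CPM, at 32.0, 20.9 and 25.2, and at 67.1, 45.6 and 49.3. For both genes the 3 groups did not overlap, and replicate 1 was the highest in every medium. With RIPK3 medium Hspa1b rose 4.14-fold (log2 2.05 ± 0.29 SE, adjusted p = 0.00374) and Hspa1a 3.88-fold (log2 1.96 ± 0.27 SE, adjusted p = 0.00326). With BimS medium they differed from WT medium by 1.04 ± 0.31 SE (adjusted p = 0.0879) and 0.90 ± 0.29 SE (adjusted p = 0.108) on the log2 scale, which missed the threshold. In the fit that blocks on the replicate number they were called (adjusted p = 1.26e-23 and 2.87e-18), and DESeq2 called them too. The summed reads of both genes gave 2.00 ± 0.28 with RIPK3 medium (adjusted p = 0.00351) and 0.97 ± 0.29 with BimS medium (adjusted p = 0.091, and 1.85e-22 with the block).

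Hsph1, the HSP110 that resets HSP70, and the J-domain gene Dnajb4 rose with both kinds of debris. Hsph1 was at 77.7, 68.5 and 78.1 CPM with WT medium, at 113, 108 and 117 with BimS medium and at 152, 138 and 144 with RIPK3 medium, with no overlap between the groups. It rose by 0.59 ± 0.06 SE with BimS medium (adjusted p = 4.21e-10) and by 0.95 ± 0.06 SE with RIPK3 medium (adjusted p = 1.28e-15) on the log2 scale. Dnajb4 was at 4.28, 4.17 and 4.94 CPM, at 6.98, 5.56 and 6.81, and at 8.95, 9.14 and 8.46. These groups did not overlap either, and it rose by 0.52 ± 0.14 SE (adjusted p = 0.00669) and by 0.98 ± 0.13 SE (adjusted p = 4.03e-07). Dnajb4 overlaps Fubp1 on the opposite strand, and the sources used here do not state whether reads were counted by strand.

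The BAG protein Bag3, which links HSP70 to autophagy, and the J-domain genes Dnaja2 and Dnajb1 made smaller steps. Bag3 was at 45.6, 45.2 and 43.3 CPM with WT, at 52.8, 54.1 and 55.9 with BimS and at 61.6, 64.0 and 65.4 with RIPK3 medium. Dnaja2 was at 301, 286 and 303 CPM, at 367, 356 and 360, and at 395, 402 and 430. Dnajb1, the classical HSP40, was at 50.5, 46.3 and 48.2 CPM, at 57.8, 51.8 and 53.9, and at 74.1, 62.8 and 63.8. In all 3 genes the order of the groups was WT, BimS and RIPK3 without overlap. The share of all genes whose groups separate in this way is not given here. With RIPK3 medium the 3 genes rose by 0.51 ± 0.06, 0.46 ± 0.05 and 0.47 ± 0.06 SE on the log2 scale (adjusted p = 1.31e-08, 1.02e-09 and 6.68e-07). With BimS medium Bag3 and Dnaja2 each rose by 0.28 (adjusted p = 0.000578 and 2.15e-05), and Dnajb1 stood 0.17 above WT medium (adjusted p = 0.0784, and 0.0123 with the block).

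The testis-enriched HSP70 gene Hspa2 and the small heat shock protein gene Hspb1 were near the floor of the family. Hspa2 was at 3.29, 3.36 and 3.59 CPM with WT, at 4.18, 4.30 and 4.23 with BimS and at 6.47, 4.62 and 5.64 with RIPK3 medium. Hspb1 was at 1.79, 1.88 and 1.80 CPM, at 2.60, 2.80 and 2.06, and at 2.38, 3.01 and 3.16. The BimS and RIPK3 values of Hspb1 overlap, while its WT values lie below both. Both rose with RIPK3 medium, Hspa2 by 0.70 ± 0.16 SE (adjusted p = 0.00103) and Hspb1 by 0.64 ± 0.21 SE (adjusted p = 0.0277) on the log2 scale. The call of Hspb1 was lost without any WT replicate and without RIPK3 replicate 2 or 3 (adjusted p from 0.0573 to 0.103), and under DESeq2 or library totals.

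The constitutive HSP70 gene Hspa8 moved the other way. It was at 2132, 1977 and 2182 CPM with WT medium, at 1385, 1332 and 1402 with BimS medium and at 1716, 1715 and 1971 with RIPK3 medium. All samples with debris lay below all with WT medium, and those with BimS medium were the lowest. Hspa8 fell by 0.61 ± 0.05 SE with BimS medium (adjusted p = 2.1e-11) and by 0.22 ± 0.05 SE with RIPK3 medium (adjusted p = 0.00147) on the log2 scale. The summed level of the 24 cytosolic members, Hspa8 included, was 7787 ± 141 CPM with BimS medium, 8310 ± 245 with WT and 8728 ± 373 with RIPK3 medium (SD, n = 3).

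Among HSP90 genes and their co-chaperones, the stress-inducible Hsp90aa1 rose and the constitutive Hsp90ab1 was not called. Hsp90aa1 was at between 263 and 266 CPM with WT medium, between 294 and 302 with BimS and between 336 and 355 with RIPK3 medium. It rose by 0.18 (adjusted p = 0.00516) and by 0.39 (adjusted p = 2.29e-08) on the log2 scale, the first call being lost under library totals. Hsp90ab1 differed by 0.09 on the log2 scale with RIPK3 medium (adjusted p = 0.191, and 0.0471 with the block). Fkbp4, an immunophilin of steroid receptor complexes, fell by 0.20 with BimS medium (adjusted p = 0.0464), a call lost without any WT replicate or BimS replicate 1 (adjusted p from 0.101 to 0.292), and under DESeq2 or limma on log2 CPM. Chordc1, an HSP90 partner, rose by 0.15 on the log2 scale with RIPK3 medium (adjusted p = 0.0484), a call lost when any cDC1 sample other than RIPK3 replicate 1 was left out (adjusted p from 0.0505 to 0.214), under library totals, with no filter on low counts and under limma on log2 CPM. The J-domain gene Dnajb2 rose with both, by 0.21 (adjusted p = 0.0049, lost under library totals) and 0.29 (adjusted p = 7.65e-05). The 11 cytosolic members not called with RIPK3 medium (Hspa4, Hspa4l, Hspa14, Hsp90ab1, Dnaja1, Dnajb6, Bag1, St13, Stip1, Ahsa1 and Fkbp4) had log2 fold changes between -0.05 and 0.18. Of these, the HSP90 activator Ahsa1 (0.18, adjusted p = 0.053) and the HSP70 to HSP90 adaptor Stip1 (0.13, adjusted p = 0.122) were called with the block (adjusted p = 0.0127 and 0.0459), and Ahsa1 also with RLE size factors, with the filterByExpr filter and without RIPK3 replicate 1. Ahsa1 was also called with the block with BimS medium, at 0.16 (adjusted p = 0.101, and 0.0295 with the block).

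**Figure D3:**
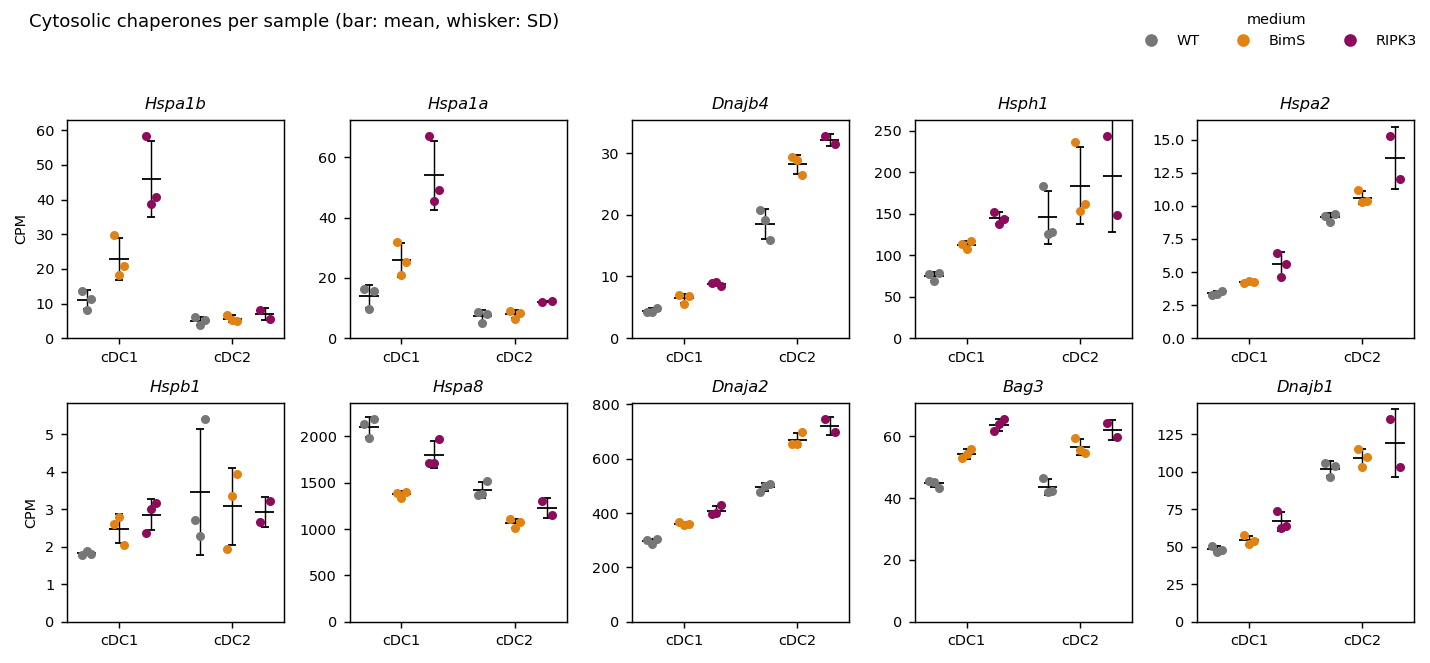
Level in CPM (y axis, from 0) of the 10 cytosolic members with the largest called change against WT medium, in every sample of cDC1s and cDC2s (x axis), colored by medium, with mean and SD. In cDC1s Hspa1b steps from at most 13.7 CPM with WT medium to at least 38.6 with RIPK3 medium, and Hspa8 drops from at least 1977 CPM with WT medium to at most 1402 with BimS medium.

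Of the 8 ER chaperones 7 rose in cDC1s with RIPK3 medium and 4 with BimS medium, all by small steps, and none fell, where 8.34% and 7.31% of all genes rose. The HSP70 Hspa5 was at 1235, 1294 and 1227 CPM with WT medium, at 1356, 1430 and 1330 with BimS medium and at 1405, 1520 and 1421 with RIPK3 medium. The HSP90 Hsp90b1 was at 1051, 1064 and 1056 CPM, at 1173, 1207 and 1154, and at 1170, 1201 and 1204. For both, all samples with debris lay above all with WT medium, and the samples with BimS and RIPK3 medium overlap. Hspa5 rose by 0.13 ± 0.05 SE with BimS medium (adjusted p = 0.0468) and by 0.21 ± 0.05 SE with RIPK3 medium (adjusted p = 0.000653) on the log2 scale, and Hsp90b1 by 0.16 (adjusted p = 0.00874) and 0.17 (adjusted p = 0.00285).

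The disulfide isomerase gene Pdia4 was at 206, 200 and 202 CPM with WT, at 246, 240 and 242 with BimS and at 251, 233 and 234 with RIPK3 medium, and Hyou1, the HSP110 of the ER, at 352, 359 and 348, at 399, 405 and 393, and at 407, 408 and 378. Both thus rose with either kind of debris, Pdia4 by 0.26 and 0.24 (adjusted p = 8.88e-05 and 0.000231) and Hyou1 by 0.18 and 0.17 (adjusted p = 0.00599 and 0.0061) on the log2 scale. The HSP70-like Hspa13 was at 119, 132 and 121 CPM, at 133, 140 and 130, and at 158, 155 and 146. The J-domain gene Dnajb9, a target of the unfolded protein response, was at 75.3, 74.5 and 71.1 CPM, at 74.6, 80.5 and 76.0, and at 80.9, 89.1 and 85.1. Their WT and BimS samples overlap and their RIPK3 samples lie above both, and they rose with RIPK3 medium by 0.30 (adjusted p = 3.73e-05) and 0.21 (adjusted p = 0.00644). The J-domain gene Dnajb11 was at 192, 200 and 191 CPM, at 215, 205 and 216, and at 224, 212 and 233. It rose by 0.20 with RIPK3 medium (adjusted p = 0.003) and differed by 0.12 with BimS medium (adjusted p = 0.0934, and 0.0246 with the block). Dnajc3, an HSP70 co-chaperone that dampens the same response, had log2 fold changes between -0.01 and 0.06 and was not called.

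These ER calls depended on the scaling. When libraries were scaled by their totals alone, 3 of the 8 ER members were called with RIPK3 medium and 1 of the 8 with BimS medium, all higher, where 6.06% and 5.35% of all genes were called higher, and limma on log2 counts without normalization called 0 of the 8 in both. With BimS medium the call of Hspa5 was lost without WT replicate 1 or 3, BimS replicate 1 or 2 or RIPK3 replicate 2 (adjusted p from 0.0576 to 0.305) and with the filterByExpr filter, and that of Hsp90b1 without BimS replicate 2 (adjusted p = 0.0862). With RIPK3 medium the call of Dnajb9 was lost without WT replicate 3 or RIPK3 replicate 2 (adjusted p = 0.0711 at most), and that of Hyou1 without RIPK3 replicate 2 (adjusted p = 0.0514).

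Of the 5 mitochondrial members, 3 fell and 0 rose in cDC1s with BimS medium, where 5.89% of all genes fell, and 1 rose and 1 fell with RIPK3 medium, where 8.34% of all genes rose and 8.19% fell. Their median log2 fold change was -0.17 with BimS and -0.02 with RIPK3 medium. The chaperonin genes Hspd1 and Hspe1 were lower with BimS medium. Hspd1 was at 95.6, 88.5 and 101 CPM with WT, at 78.1, 80.5 and 82.5 with BimS and at 88.8, 88.8 and 104 with RIPK3 medium, and Hspe1 at 249, 235 and 254, at 226, 208 and 223, and at 240, 242 and 276. In both genes all BimS samples lay below all others, and the WT and RIPK3 samples overlap. They fell by 0.24 (adjusted p = 0.00512) and 0.17 (adjusted p = 0.0313) on the log2 scale. The call of Hspd1 was lost without WT replicate 3 (adjusted p = 0.0592) and that of Hspe1 without WT replicate 1 or 3 or BimS replicate 2 or 3 (adjusted p from 0.0605 to 0.162). The genes overlap on opposite strands, and whether reads were counted by strand is not given in the sources used here.

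Trap1, the mitochondrial HSP90, was at 56.6, 54.0 and 55.9 CPM with WT, at 50.2, 46.2 and 45.9 with BimS and at 43.2, 49.3 and 52.7 with RIPK3 medium. All samples with debris lay below all with WT medium, and it fell by 0.23 (adjusted p = 0.0148) and 0.20 (adjusted p = 0.031). Both calls were lost without WT replicate 1 or 3, the first also without BimS replicate 2 or 3 and the second without RIPK3 replicate 1 (adjusted p from 0.0521 to 0.249) and under DESeq2. Hspa9, the mitochondrial HSP70 that drives protein import, was at 271, 292 and 273 CPM, at 290, 317 and 299, and at 307, 345 and 331. It rose by 0.23 with RIPK3 medium (adjusted p = 0.000779), and differed by 0.12 with BimS medium (adjusted p = 0.151, and 0.0292 with the block). The J-domain gene Dnaja3 was at between 32.8 and 36.0 CPM in all cDC1 samples and was not called.

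Of the heat shock factors, Hsf2 rose and Hsf1 was not called. Hsf2 was at 39, 36.2 and 36.7 CPM with WT, at 51.0, 44.6 and 44.7 with BimS and at 51.3, 50.6 and 50.9 with RIPK3 medium. Every sample with debris was above every WT sample, and the rise was 0.33 ± 0.06 SE with BimS medium (adjusted p = 0.000281) and 0.45 ± 0.06 SE with RIPK3 medium (adjusted p = 1.27e-06) on the log2 scale. Hsf1, whose protein is mainly regulated after translation, had log2 fold changes of -0.08 and 0.04. Hsf1 overlaps Dgat1 and Bop1 on the opposite strand.

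**Figure D4:**
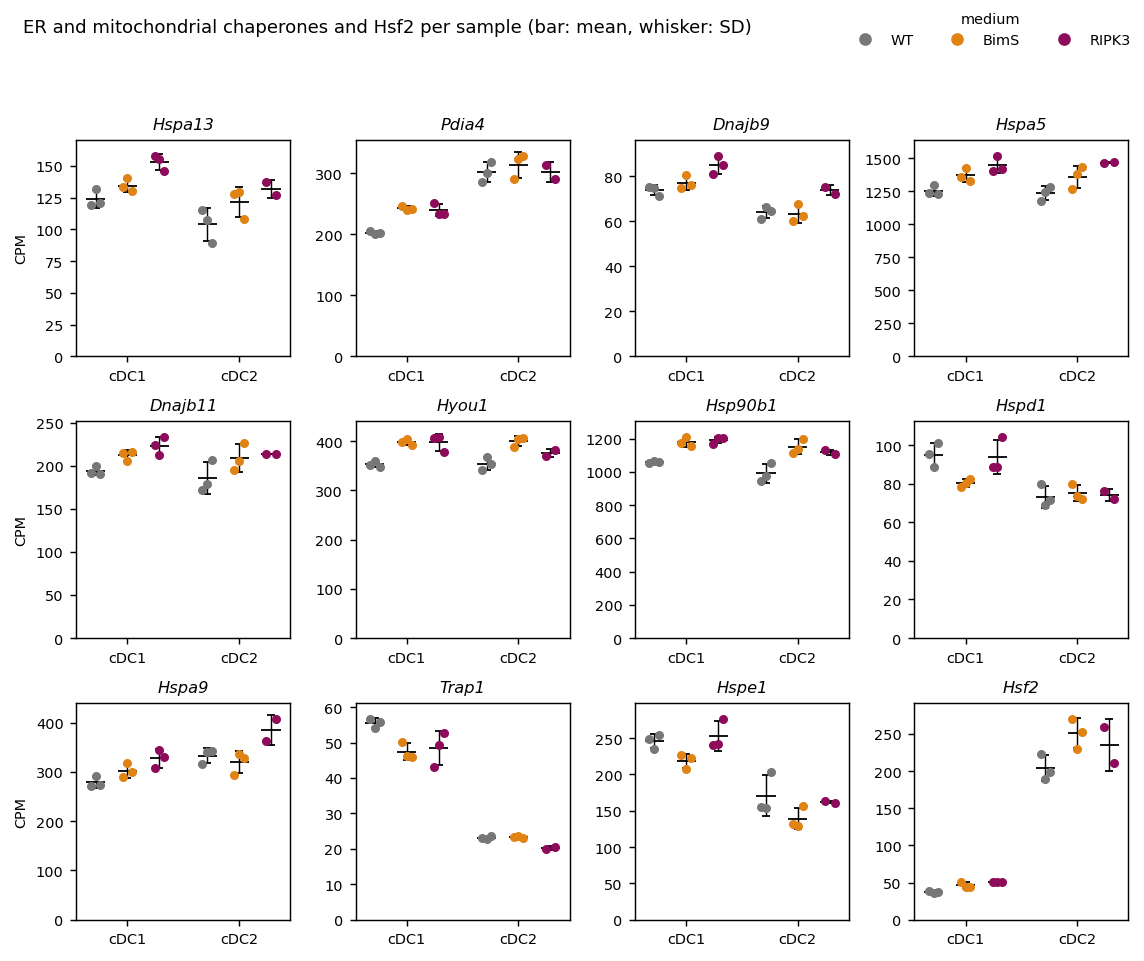
Level in CPM (y axis, from 0) of the ER and mitochondrial members called against WT medium and of Hsf2, in every sample of cDC1s and cDC2s (x axis), colored by medium, with mean and SD. The ER genes step up by small amounts relative to their level, Hspd1 and Hspe1 are lowest in cDC1s with BimS medium, and Hsf2 is several times higher in cDC2s than in cDC1s.

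In the fit without the replicate block, a smaller number of members passed the threshold in cDC2s than in cDC1s, all of them cytosolic. With BimS medium 5 of 39 were called, 3 higher and 2 lower, against 7.01% of the 19239 genes tested, 3.80% higher and 3.21% lower. With RIPK3 medium 6 were called, all higher, against 7.21% of all genes, 3.93% higher and 3.28% lower. These were 12.8% and 15.4% of the members. Scaled by library totals alone, 2 members were higher and 4 lower with BimS medium (2.75% and 6.50% of all genes) and 5 higher and 3 lower with RIPK3 medium (2.87% and 6.17%). The spread between replicates was larger in cDC2s, with a common biological coefficient of variation of 9.58% against 5.55% in cDC1s. With the replicate block 22 and 26 members were called in cDC1s with BimS and RIPK3 medium. In cDC2s it called 19 members with BimS medium (21.3% of all genes) and 23 with RIPK3 medium (21.4%), among them 5 ER members in each, all higher. The counts of the cell types thus lay closer together with the block than without it. The 14 members gained with BimS medium lay between -0.29 and 0.33 on the log2 scale (adjusted p from 2.11e-12 to 0.0268 with the block). Higher were Hspa4l, Hspa5, Hspa13, Hsph1, Hsp90aa1, Hsp90ab1, Hsp90b1, Dnajb2, Dnajb11, Hsf2, Ahsa1 and Hyou1, and lower Hspa14 and Hspe1. The 17 gained with RIPK3 medium lay between -0.30 and 0.32 (adjusted p from 2.38e-08 to 0.0295 with the block). Higher were Hspa4l, Hspa5, Hspa9, Hspa13, Hsph1, Hsp90ab1, Hsp90b1, Dnajb1, Dnajb2, Dnajb9, Dnajb11, Hsf2, Stip1 and Ahsa1, and lower Hspa8, Hsf1 and Fkbp4.

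Dnajb4 and Dnaja2 rose with both kinds of debris in cDC2s. Dnajb4 was at 20.7, 19.1 and 15.9 CPM with WT medium, at 29.3, 28.9 and 26.4 with BimS medium and at 32.8 and 31.4 with RIPK3 medium. Dnaja2 was at 479, 499 and 509 CPM, at 654, 655 and 698, and at 745 and 699. Neither gene has overlap between its groups. Dnajb4 rose by 0.60 ± 0.11 SE (adjusted p = 0.00108) and 0.78 ± 0.12 SE (adjusted p = 0.00017), and Dnaja2 by 0.43 ± 0.07 SE (adjusted p = 0.000606) and 0.53 ± 0.08 SE (adjusted p = 0.00016) on the log2 scale.

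Bag3 rose as well, from 46.6, 41.8 and 42.4 CPM with WT medium to 59.4, 55.5 and 54.5 with BimS and 64.3 and 59.6 with RIPK3 medium. It rose by 0.37 (adjusted p = 0.0107) and by 0.50 (adjusted p = 0.00204) on the log2 scale. The call with BimS medium was lost without WT replicate 2 or BimS replicate 1 (adjusted p = 0.0816 at most) and under library totals, and that with RIPK3 medium without RIPK3 replicate 1 (adjusted p = 0.0661). Leaving out a RIPK3 sample leaves 1 in that group, which is then assumed to vary like the others.

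The inducible HSP70 pair stayed low in cDC2s. Hspa1a was at 8.77, 4.93 and 7.93 CPM with WT medium, at 9.00, 6.46 and 8.41 with BimS medium and at 11.9 and 12.2 with RIPK3 medium. Hspa1b was at 6.05, 3.84 and 5.18 CPM, at 6.69, 5.19 and 4.95, and at 8.15 and 5.63. Only Hspa1a with RIPK3 medium had samples apart from all others. It rose by 0.72 ± 0.19 SE on the log2 scale (adjusted p = 0.0261), a call lost without WT replicate 2 or either RIPK3 sample (adjusted p from 0.117 to 0.226) and under library totals. The summed reads of the pair gave 0.61 ± 0.18 SE with RIPK3 medium (adjusted p = 0.0445) and 0.14 ± 0.16 SE with BimS medium (adjusted p = 0.735).

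Of other cytosolic members, Hspa2 was at 9.24, 8.78 and 9.39 CPM with WT, at 11.2, 10.3 and 10.4 with BimS and at 15.3 and 12.0 with RIPK3 medium. It rose with RIPK3 medium by 0.57 (adjusted p = 0.0138), lost without WT replicate 2 or RIPK3 replicate 1 (adjusted p = 0.288 at most). Hsp90aa1 was at 584, 528 and 586 CPM with WT, at 704, 616 and 682 with BimS and at 839 and 711 with RIPK3 medium, with no overlap between the groups. It rose with RIPK3 medium by 0.44 (adjusted p = 0.00365), which missed the threshold without RIPK3 replicate 1 (0.33, adjusted p = 0.17). With BimS medium it differed by 0.24 (adjusted p = 0.105, and 3.83e-08 with the block), and was also called with no filter on low counts. Hspa8 was at 1363, 1373 and 1520 CPM with WT, at 1105, 1006 and 1072 with BimS and at 1303 and 1148 with RIPK3 medium. It fell with BimS medium by 0.42 ± 0.08 SE (adjusted p = 0.00147), and differed by -0.22 with RIPK3 medium (adjusted p = 0.166, and 0.000118 with the block). Fkbp4 fell with BimS medium by 0.46 (adjusted p = 0.00558, and 0.0669 without BimS replicate 2).

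Hsph1 varied with the replicate number in cDC2s. It was at 183, 126 and 128 CPM with WT medium, at 237, 153 and 162 with BimS medium and at 244 and 148 with RIPK3 medium. Replicate 1 was the highest in every medium, and each debris sample was above the WT sample of the same number. The differences from WT medium of 0.34 ± 0.28 SE and 0.42 ± 0.31 SE on the log2 scale were not called (adjusted p = 0.624 and 0.574), and with the block they were 0.33 and 0.32 (adjusted p = 2.11e-12 and 2.39e-08). Dnajb1 was at 106, 96.4 and 104 CPM, at 115, 103 and 110, and at 135 and 103, and Hspb1 at 2.72, 2.29 and 5.40, at 1.95, 3.36 and 3.94, and at 2.65 and 3.22. Neither was called against WT medium in cDC2s, and Dnajb1 was called with RIPK3 medium with the block (0.21, adjusted p = 0.0019).

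The ER, mitochondrial and heat shock factor genes of cDC2s gave 0 calls by edgeR as fitted here without the block, with 3 ER members, 1 mitochondrial member and 1 factor at an unadjusted p under 0.05 with BimS medium and 2, 1 and 1 with RIPK3 medium. Hspa5 was at 1179, 1242 and 1282 CPM with WT, at 1270, 1379 and 1434 with BimS and at 1466 and 1468 with RIPK3 medium, or 0.14 and 0.24 above WT medium on the log2 scale (adjusted p = 0.351 and 0.0979, and 0.00204 and 2.38e-08 with the block). Hsp90b1 was at 946, 974 and 1054 CPM, at 1114, 1137 and 1200, and at 1129 and 1107, or 0.21 and 0.16 above WT medium (adjusted p = 0.0988 and 0.301, and 3.92e-07 and 0.000102 with the block). Hsp90b1 had no overlap between WT and debris samples, and Hspa5 none between WT and RIPK3 samples. Hsf2 was at 223, 190 and 199 CPM, at 270, 230 and 253, and at 260 and 211, or 0.30 and 0.20 above WT medium (adjusted p = 0.0613 and 0.324, and 6.55e-11 and 0.00144 with the block). DESeq2 called Hsp90b1 and Hsf2 with BimS medium and Hspa5 with RIPK3 medium. EdgeR with other scalings or no filter on low counts called at most 1 member of each of these compartments in either comparison, namely Hspe1 (lower) and Hsf2 with BimS medium and Hspa13 and Hsf1 (lower) with RIPK3 medium. Without WT replicate 3 it called Hsp90b1 with BimS medium and Hspa5 and Dnajb11 with RIPK3 medium, without WT replicate 1 Hspe1 and Hsf2 with BimS medium and Hspa13 with RIPK3 medium, and without BimS replicate 3 Hspe1 with BimS medium.

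The 2 kinds of debris were also compared directly. In cDC1s 10 members were called, all higher with RIPK3 than with BimS medium, against 4.15% of all genes, 1.94% higher, and 25.6% of the members. They were Dnajb4 (0.46), Hspa8 (0.39), Hsph1 (0.36), Dnajb1 (0.30), Bag3 (0.23), Hspd1 (0.22), Hspe1 (0.21), Hsp90aa1 (0.21), Hspa13 (0.19) and Dnaja2 (0.18), as log2 fold changes. The calls of Hspa8 (adjusted p = 4.27e-06), Hsph1 (6.12e-05), Hsp90aa1 (0.0037) and Dnajb1 (0.00399) were kept whichever sample was left out. Those of the other 6 were lost without 2 to 4 of the samples with debris, each of BimS replicates 1 to 3 and RIPK3 replicates 1 to 3 ending at least 1 of them (adjusted p from 0.05 to 0.194), and that of Hspd1 also under limma on log2 CPM. Without BimS replicate 2 or 3 there were 6 and 5 calls. Hspa1a and Hspa1b had log2 fold differences of 1.06 ± 0.25 SE and 1.01 ± 0.27 SE that missed the threshold (adjusted p = 0.0926 and 0.125) and were called by DESeq2 and with the block (2.49e-25 and 3.04e-27). Hspa4l (0.24, adjusted p = 0.0544) and Hspa9 (0.12, adjusted p = 0.23) were called with the block too (0.00839 and 0.0464), and Hspa4l also with RLE size factors, with the filterByExpr filter, with no filter and without RIPK3 replicate 3. The summed reads of Hspa1a and Hspa1b differed by 1.03 ± 0.27 SE (adjusted p = 0.112, and 1.2e-25 with the block). Limma on log2 counts without normalization called 2 members, Hspa1a and Hspa1b.

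In cDC2s 0 members differed between RIPK3 and BimS medium by edgeR, DESeq2 or either limma fit, where 0.379% of all genes did, and 7 members had an unadjusted p under 0.05. Without the filter on low counts edgeR called 1, Hspa1a. With the block 11 were called, all higher with RIPK3 medium (14.3% of all genes), led by Hspa1a (0.66, adjusted p = 2.18e-05), Hspa2 (0.34, adjusted p = 0.0381) and Hspe1 (0.32, adjusted p = 5.36e-08). The others were Hspa5, Hspa8, Hspa9, Hspa14, Hsp90aa1, Dnaja2, Dnajb9 and Bag1. All 11 lay between 0.12 and 0.66 on the log2 scale (adjusted p from 5.36e-08 to 0.0483 with the block). Without the block the log2 fold difference of Hspa1a was 0.60 ± 0.19 SE (adjusted p = 0.293), and that of the summed reads of the pair 0.48 ± 0.18 SE (adjusted p = 0.423, and 7.62e-05 with the block).

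Whether cDC1s and cDC2s differed in their response was tested with interaction terms. By edgeR 0 of the 39 members were called for BimS medium, where 0.870% of the 19082 genes were, and 0 for RIPK3 medium, where 1.14% were. At an unadjusted p under 0.05 there were 6 and 5 members. Hspa1b had the largest differences between the responses, with 1.61 ± 0.43 SE more on the log2 scale in cDC1s for RIPK3 medium (adjusted p = 0.138) and 0.90 ± 0.41 SE for BimS medium (adjusted p = 0.588). DESeq2, limma on log2 CPM and limma on log2 counts each called Hspa1b alone for RIPK3 medium, and none of the 3 called a member for BimS medium. With a block on the replicate number across both cell types, a pairing that 19 of 24 same-numbered pairs showed, Hspa1a and Hspa1b were called for both media (2.32% and 2.35% of all genes), with 1.19 and 1.64 for RIPK3 medium (adjusted p = 0.000224 and 2.09e-08) and 0.76 and 0.87 for BimS medium (adjusted p = 0.0188 and 0.000614). The summed reads of the pair gave 1.38 ± 0.40 SE for RIPK3 medium (adjusted p = 0.195, and 6.17e-07 with the block) and 0.83 ± 0.38 SE for BimS medium (adjusted p = 0.593, and 0.000761 with the block). No other member was called under any of these tests.

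**Figure D5:**
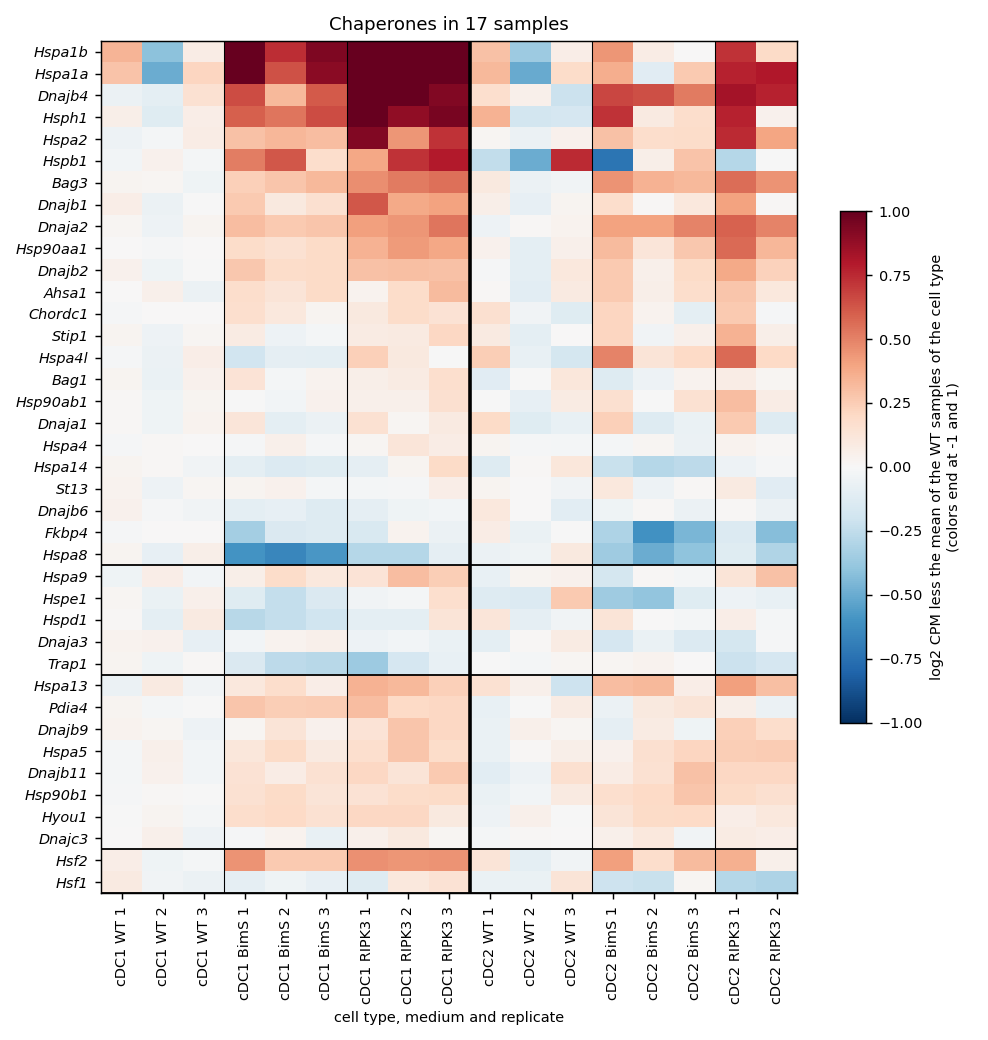
Log2 CPM of the 39 members (rows, by compartment) in the 17 samples (columns), less the mean of the WT samples of the same cell type, with colors ending at -1 and 1. The 3 RIPK3 samples of cDC1s are darkest red for Hspa1a and Hspa1b, the 3 BimS samples of cDC1s are blue for Hspa8, and in cDC2s replicate 1 is the reddest of its medium for Hsph1, Hspa4l and Dnaja1.

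Between the cell types themselves, over all media, 32 of the 39 members were called, 12 higher in cDC1s and 20 higher in cDC2s, where 59.8% of all genes were called, 30.4% higher and 29.4% lower in cDC1s. The members' share was 82.1%, beside genes again not matched in level. Limma on log2 counts without normalization gave another balance, with 19 members higher and 13 lower in cDC1s, where 39.2% and 19.4% of all genes were, while library totals alone gave 14 and 20. Of the 24 cytosolic members 16 were higher in cDC2s and 5 in cDC1s. Of the 5 mitochondrial members 4 were higher in cDC1s, and of the 8 ER members 3 were higher in cDC1s, 1 in cDC2s and 4 were not called.

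The largest difference was that of Hsf2, 5.17-fold higher in cDC2s (log2 -2.37 ± 0.05 SE, adjusted p = 2.82e-26), with 36.2 to 51.3 CPM in cDC1s and 190 to 270 CPM in cDC2s. Hsf1 differed by -0.20. Dnajb4 was 4.05-fold higher in cDC2s (log2 -2.02, adjusted p = 1.03e-21) and Hspa2 2.54-fold (log2 -1.34, adjusted p = 1.05e-15), and neither overlapped between the cell types in any sample. Of the cytosolic HSP90 genes and the co-chaperones of HSP90 and HSP70, Hsp90aa1 (-1.14), the adaptor Stip1 (-1.08), the activator Ahsa1 (-0.70), Fkbp4 (-0.34) and Chordc1 (-0.19) were higher in cDC2s, Hsp90ab1 was higher in cDC1s by 0.23 (adjusted p = 9.63e-06) and St13 (0.08) was not called. The J-domain genes Dnajb1 (-0.98), Dnaja1 (-0.87), Dnaja2 (-0.82) and Dnajb2 (-0.53) were higher in cDC2s. Dnaja1 overlaps Smu1 on the opposite strand.

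Higher in cDC1s were Hspa1b by 3.90-fold (log2 1.96 ± 0.24 SE, adjusted p = 4.03e-06) and Hspa1a by 3.04-fold (log2 1.61 ± 0.20 SE, adjusted p = 6.29e-06), and the summed reads by 1.74 ± 0.22 on the log2 scale (adjusted p = 5.52e-06). These folds pool media in which the pair differed, and with WT medium alone they were 2.19-fold for Hspa1b (log2 1.13, adjusted p = 0.00634) and 1.91-fold for Hspa1a (log2 0.94, adjusted p = 0.0136). The values of both genes overlap between the cell types across media. Trap1 was 2.25-fold higher in cDC1s, at 43.2 to 56.6 CPM against 19.9 to 23.7 CPM (log2 1.17, adjusted p = 5.87e-19). Hspe1 (0.61), the ER gene Dnajc3 (0.59), Hspa8 (0.49) and Dnaja3 (0.36) followed, and Hspd1 differed by 0.27. Dnaja3 overlaps Coro7 on the opposite strand. The 7 members not called were Hspa5, Hsp90b1, Dnajb11, Hyou1, Bag3, St13 and Dnajb6, with log2 fold changes between 0.00 and 0.08. The call of Hspb1 (-0.45, adjusted p = 0.0291) was lost without any of 6 samples, namely WT replicates 1 to 3 and BimS replicate 3 of cDC1s and replicate 3 of cDC2s with WT or BimS medium (adjusted p from 0.0539 to 0.0876). In the WT medium alone 31 members were called, where 46.2% of all genes were.

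Chaperone genes outside the family were counted as well. Of 28 other cytosolic chaperones and co-chaperones tested in cDC1s, 7 rose and 0 fell with RIPK3 medium, and 4 rose and 0 fell with BimS medium, beside 8.34% and 7.31% of all genes higher. The HSP70 exchange factor Bag2 rose by 0.81 with RIPK3 medium (adjusted p = 0.000202) and stood 0.46 above WT medium with BimS medium (adjusted p = 0.0579), and the HSP90 co-chaperone Ptges3 (p23) rose by 0.44 and 0.43 (adjusted p = 3.4e-08 and 6.45e-08). In cDC2s 4 of 27 rose with RIPK3 and 1 with BimS medium, among them Ptges3 (0.35 and 0.28), beside 3.93% and 3.80% of all genes higher, so that the count with BimS medium is near the background. Of the 14 subunits of the chaperonin TRiC and of prefoldin, which fold actin and tubulin, 0 were called by edgeR in any of the 6 comparisons of media, with medians between -0.07 and 0.04 on the log2 scale.

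Of 25 other genes of ER folding and the unfolded protein response, 7 rose and 1 fell with BimS medium in cDC1s, and 6 rose and 3 fell with RIPK3 medium, where 7.31% and 8.34% of all genes rose and 5.89% and 8.19% fell. Creld2, an ER stress-inducible gene, rose by 0.36 and 0.28 (adjusted p = 5.82e-06 and 0.000219), while the sensor gene Atf6 fell by 0.27 with both (adjusted p = 0.000213 and 0.000247). Derl3, of ER-associated degradation, rose with BimS medium by 0.71 (adjusted p = 0.0357) and was lower with RIPK3 than with BimS medium by a log2 fold change of -1.25 (adjusted p = 0.00187). In cDC2s 0 of the 25 were called by edgeR in the comparisons of media. Of 11 other mitochondrial chaperones and proteases, 0 rose and 1 fell with BimS medium in cDC1s and 1 rose and 1 fell with RIPK3 medium, and in cDC2s 0 rose and 1 fell with BimS and 1 rose and 0 fell with RIPK3 medium, where 3.80% and 3.93% of all genes rose and 3.21% and 3.28% fell. With BimS medium Timm44, of the protein import motor, fell in cDC1s (-0.19, adjusted p = 0.0121) and Hscb, a co-chaperone of iron-sulfur cluster assembly, in cDC2s (-0.52, adjusted p = 0.0199). The protease subunit gene Clpx rose with RIPK3 medium in cDC1s (0.30, adjusted p = 0.000241) and cDC2s (0.31, adjusted p = 0.0385), and the protease gene Afg3l2 fell with it in cDC1s (-0.23, adjusted p = 0.00765).

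Early response genes, which also rise when tissue is dissociated, were counted in the same comparisons. Of 15 such genes, 9 rose and 1 fell in cDC1s with RIPK3 medium, 8 rose and 3 fell with BimS medium, and in cDC2s 8 rose and 0 fell with RIPK3 and 5 rose and 3 fell with BimS medium. Of all genes 8.34% rose and 8.19% fell with RIPK3 medium in cDC1s, and 7.31% and 5.89% with BimS medium. In cDC2s 3.93% rose and 3.28% fell with RIPK3 medium, and 3.80% and 3.21% with BimS medium. The summed level of the early response genes was between 2562 and 2672 CPM in cDC1s with WT medium, between 2602 and 2715 with BimS medium and between 2914 and 2971 with RIPK3 medium, and in cDC2s between 2345 and 2463, between 2559 and 2604, and between 2918 and 2946. Egr2 (2.15, adjusted p = 3.83e-14) and Atf3 (1.15, adjusted p = 1.37e-18) rose most with RIPK3 medium in cDC1s. Their part in the chaperone results was not tested.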

How the data were processed

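Polyadenylated RNA of 17 samples was sequenced as paired-end reads. The deposited gene table gives raw counts. The authors obtained them with SeqPurge, STAR 2.7.10a on GRCm39 and gensum. In another deposited table the counts are scaled to a common total, increased by 1 and put on the log2 scale, and it served only to check the counts. Lines without a gene identifier (148 of 31239) held 0.0258% to 0.0366% of a sample's counts and were left out.

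Tests were run by the robust quasi-likelihood F-test of edgeR 4.0.16 (R 4.3.3) after TMM scaling. A gene entered when 50% or more of the samples had a read. Each cell type had its own fit for the media, and a joint fit, adjusted for medium, served for cDC1s against cDC2s and for interactions. Benjamini-Hochberg adjustment covered all genes tested. An adjusted p with no tool beside it is edgeR's. Fold changes are on the log2 scale, and CPM use TMM over the 17 samples. Reads carry no molecular identifiers, so depth limits cover counting error only.

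Replicate numbers pair the samples within a cell type by the data, not the labels: after removal of group means, 16 of 16 same-numbered pairs correlated above 0.1 (median 0.353), against 4 of 32 others, and across cell types 19 of 24 against 5 of 48. Where the block changes a call, its value is given or, for most members gained in cDC2s, their names and the range.

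The member list, though no measured value is part of its rule, and the other lists were chosen with earlier results of these data known. All members may be named. Shown sample by sample are those called against WT medium, up to 10 per compartment, and besides these Hsp90aa1 in cDC2s. Of other lists up to 4 called genes are named. The 9 kinds of alternative were DESeq2 1.42.0, RLE size factors, library totals, the filter filterByExpr, no filter, limma 3.58.1 on log2(count + 1) or log2 CPM, the replicate block and each sample left out. WT medium alone was tried for the cell types, and the sum of Hspa1a and Hspa1b was added after seeing the data. The procedure was tested on simulated data.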

Additional observations from a re-analysis of the deposited data

How the results depend on the processing

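Of the counts of members called, those in cDC1s against WT medium and between the cell types stayed within 1.5 times of the main value under DESeq2, RLE size factors, library totals, both filters and limma on log2 CPM. Limma on log2(count + 1) without normalization gave fewer calls: in cDC1s 5 with BimS and 11 with RIPK3 medium against WT and 2 between the kinds of debris, and 3 and 3 against WT in cDC2s. With no filter on low counts 8 members were called for BimS against WT and 1 for RIPK3 against BimS in cDC2s. With the replicate block the cDC2 counts were 19 with BimS and 23 with RIPK3 medium against WT and 11 between them, and the interactions 2 and 2. In cDC1s the block gave 22 and 26 against WT and 14 between them. It ended no call, and added none beyond those named or counted with it other than, between the cell types, that of St13 (0.08, adjusted p = 0.0471 with the block). For the RIPK3 interaction DESeq2 and both limma fits each gave 1. With 1 sample left out, the counts ranged in cDC1s from 11 to 19 with BimS and 19 to 23 with RIPK3 medium against WT and from 5 to 10 between them, in cDC2s from 4 to 9, 2 to 9 and 0 to 0, between the cell types from 31 to 33, and were 0 for both interactions. The low of 2 came without RIPK3 replicate 1 and the high of 9 for BimS against WT without WT replicate 1. Hspa9 and Chordc1, lower in cDC1s than in cDC2s, were at 0.00 and 0.01 by limma on log2(count + 1), which changed their sign without a call. The cause was not tested. Scaling by library totals alone moved the median of all genes against WT to -0.114 (BimS) and -0.123 (RIPK3) in cDC2s and -0.0654 and -0.0873 in cDC1s. Counts were low for Hspb1, Hspa2 and, in cDC2s, the Hspa1 pair, and how far this limits their results was not tested. The group of 2 samples limits every RIPK3 comparison in cDC2s.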
